A study of Homo sapiens with 27 samples.

Results

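Indeno[1,2,3-cd]pyrene (IND) was compared with its solvent in HepG2 cells on 3 of the 27 arrays of a study of polycyclic aromatic hydrocarbons. Such hydrocarbons, built of fused aromatic rings, arise in the incomplete burning of fuel, tobacco or food. The arrays were taken by their label and by their platform, which no other compound used. On each array Cy5 held the RNA of cells exposed to IND for 48 h, and Cy3 held the RNA of cells given dimethyl sulfoxide (DMSO). HepG2 is an established line from a human hepatocellular carcinoma that still makes many products of the hepatocyte. The study exposed the same line to 9 compounds in all, with 3 arrays each. Benzo[k]fluoranthene (BF), used here for a contrast, was also read against DMSO on 3 arrays. No other agent or genotype is named for any group. The dyes were not exchanged on any array, so a dye bias of a probe stays in its ratio. Doses are not given. Whether the 3 arrays came from separate cultures is not stated either, so p-values measure the spread between arrays, which may be technical. Values are log2 ratios of IND over DMSO, as mean ± SD of the 3 arrays (n = 3), unless another quantity is named.

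Compounds of this kind bind the aryl hydrocarbon receptor (AHR), a transcription factor of the cytosol that enters the nucleus with its partner ARNT and binds short DNA elements beside its target genes. Its best known targets are the cytochrome P450 enzymes of the CYP1 family, which oxidise the compounds to epoxides, diols and quinones, together with the enzymes that conjugate those products. Quinones and other electrophiles also release NRF2, a factor that raises genes for glutathione, thioredoxin and quinone reduction. In the liver AHR ligands are further known for lowering genes of lipid synthesis and for slowing the cell cycle.

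The platform carried 41000 probes, of which 26825 could be named, for 17526 genes. Of these, 13676 genes stood above background and were tested. Per array, Cy5 exceeded background on 64.4% to 67.8% of spots, and Cy3 on 69.9% to 71.0%. Log2 ratios of the 3 arrays correlated at 0.963, 0.962 and 0.978 across genes, which are not independent replicates. All 13 markers of hepatocytes and HepG2 stood above background in both channels on every array, from 2158 to 41012 intensity units with IND and from 6973 to 67606 with DMSO. None of these 13 rose and 10 fell. In a bulk sample, fewer cells of a type and less RNA per cell cannot be told apart. Among markers of other cell types, 1 of 5 endothelial, 2 of 6 fibroblast, 4 of 5 leukocyte and 4 of 5 cholangiocyte genes stood above background in both channels. Of these, CD68 (0.97 ± 0.04), a macrophage marker, and the bile duct keratins KRT7 (0.78 ± 0.13) and KRT19 (1.78 ± 0.0077) rose, and none fell. The other bile duct markers above background were lower without passing, EPCAM at -0.58 ± 0.10, just short of 1.5-fold, and SOX9 at -0.19 ± 0.03. The part of markers of other cell types in the results was not tested.

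With IND 1532 genes rose and 1944 fell, at an adjusted p under 0.05 by limma and a change of at least 1.5-fold, or 11.2% and 14.2% of the genes tested. Of these, 118 rose and 77 fell at least 4-fold. With median centring in place of loess the split was 1950 higher and 1912 lower, or 50.5% of calls higher in place of 44.1%. The genes that rose most were led by CYP1A1 and other AHR targets. Those that fell most included genes of plasma proteins, lipid synthesis and mitosis.

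**Figure D1:**
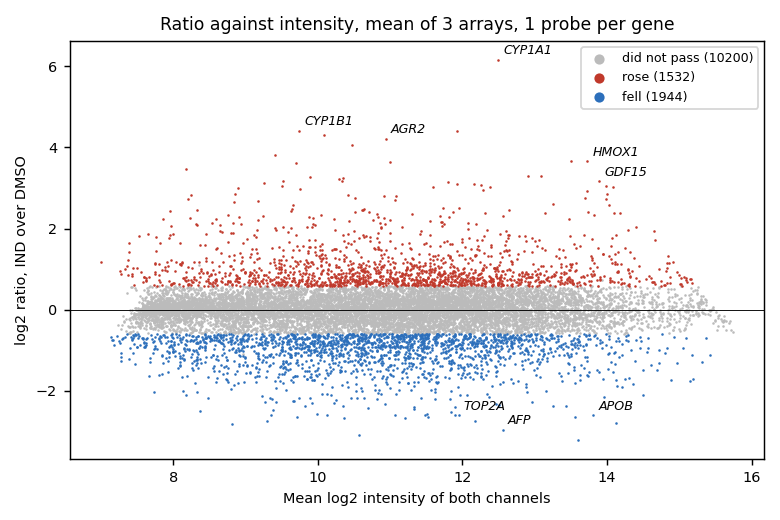
Log2 ratio of IND over DMSO (vertical axis) against the mean log2 intensity of both channels (horizontal axis), with 1 point per gene and values averaged over 3 arrays. The 1532 genes that rose and the 1944 that fell spread over the whole range of intensity, with CYP1A1 highest.

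The AHR targets rose together. Of the 16 that were tested, 14 rose and none fell, with a median log2 ratio of 3.03, against 11.2% of all genes rising and a median of 0.01. This and the other lists were written with earlier results of these data known, so their counts are descriptions and not tests. CYP1A1, the P450 that oxidises these hydrocarbons, read 40131, 52124 and 54600 intensity units with IND, against 694, 602 and 751 with DMSO. No DMSO value came near an IND value. Cy5 was saturated on all 3 arrays, so CYP1A1 was at least 71.4-fold higher, a bound from means of log2 channel levels after loess and scaling of the intensities between arrays, open to dye bias. CYP1B1, which also oxidises them and acts on oestrogens, read 3961, 3570 and 4340 intensity units with IND, against 180, 204 and 174 with DMSO, a log2 ratio of 4.41 ± 0.26. Its DMSO values were near the background, which was exceeded on 2 of 3 arrays. CYP1A2, the liver member of the family, had 790, 901 and 738 intensity units with IND, against 97.5, 117 and 126 with DMSO, and was at least 4.41-fold higher because DMSO did not stand above background on any array. CYP2S1, a P450 outside the liver's usual set, rose by 1.97 ± 0.22.

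Enzymes that handle the oxidised products rose as well. UGT1A6, which attaches glucuronic acid to phenols, read 19584, 17546 and 16006 intensity units with IND, against 1042, 838 and 678 with DMSO, a log2 ratio of 4.39 ± 0.16. A probe for UGT1A6 may also bind other UGT1A transcripts, which share exons, and its other probe gave 4.57. ALDH3A1, an aldehyde dehydrogenase, read 3874, 3825 and 3788 intensity units with IND, against 496, 383 and 356 with DMSO, a ratio of 3.23 ± 0.23. NQO1, which reduces quinones and answers to both AHR and NRF2, rose by 1.65 ± 0.05. In each of these genes the lowest IND value lay well above the highest DMSO value.

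Of the genes that restrain the receptor, both listed here rose. AHRR, the repressor of AHR, read 723, 1741 and 2037 intensity units with IND, against 156, 227 and 282 with DMSO, a ratio of 2.67 ± 0.40. Its array 1 ratio of 2.22 lay below the others. Both channels of AHRR stood above background on 2 of the 3 arrays, so its ratio rests in part on background. TIPARP, a transferase that modifies and destabilises AHR, read 2375, 2162 and 2003 intensity units with IND, against 1285, 1106 and 1001 with DMSO, a ratio of 0.95 ± 0.06. AHR itself did not pass the fold threshold at 0.37 ± 0.15, and the gene of NRF2, NFE2L2, stood at -0.19 ± 0.04 on the probe used and at -0.88 on its other probe.

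Other AHR targets included several genes of secreted or membrane proteins. AGR2, a disulfide isomerase of secretory cells, read 3496, 11116 and 11409 intensity units with IND, against 229, 535 and 568 with DMSO, a ratio of 4.21 ± 0.24. Both channels of AGR2 were dimmer on array 1, and its ratios on the 3 arrays were 3.93, 4.38 and 4.33. GPAT3, an acyltransferase of triglyceride synthesis, read 6050, 6125 and 5206 intensity units with IND, against 347, 378 and 321 with DMSO, a ratio of 4.05 ± 0.06. IGFBP1, a liver protein that binds insulin-like growth factors, read 37682, 40704 and 45330 intensity units with IND, against 3221, 3132 and 3336 with DMSO, with saturation on 1 array and a ratio of 3.67 ± 0.11. SERPINB2, an inhibitor of plasminogen activators, was at least 5.09-fold higher, as DMSO did not exceed background on any array. SLC7A5, a transporter of large neutral amino acids, rose by 1.85 ± 0.03.

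**Figure D2:**
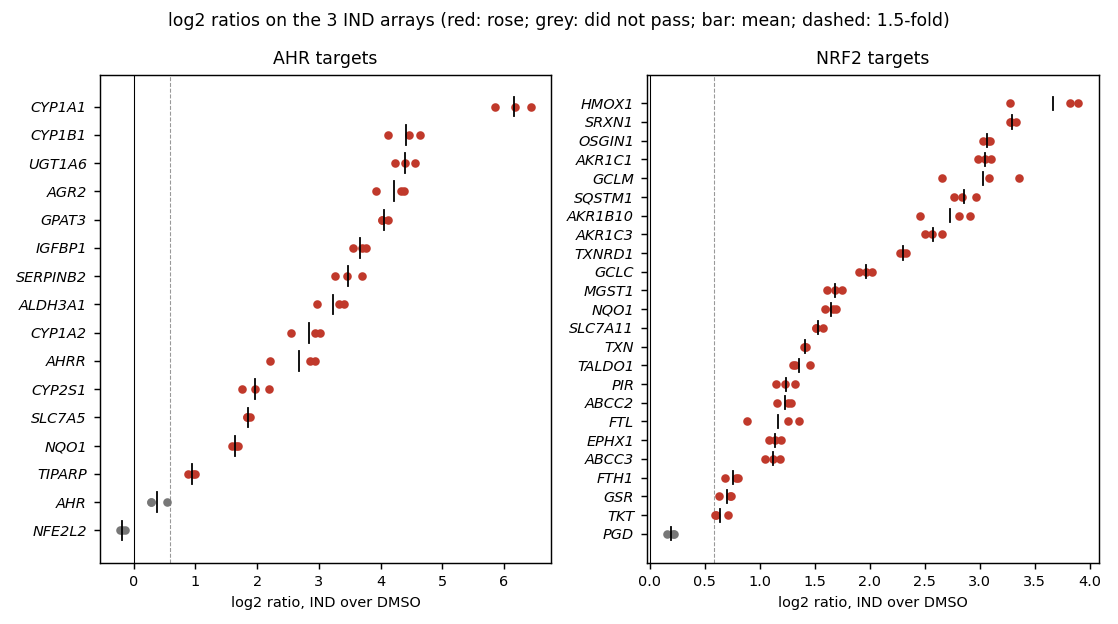
Log2 ratios of IND over DMSO on each of the 3 arrays (points) with their mean (bar) for the AHR targets (left) and NRF2 targets (right) reported. AHR and NFE2L2 on the left and PGD on the right did not pass, and all points of the genes that rose lie above 0.

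The core of the AHR element is GCGTG, which was sought on both strands of the promoters that RefSeq sequences gave for tested genes (250 bases before the start, GRCh38.p14). It was present in 6 of 13 promoters of AHR targets and in 43.6% of all 10935 promoters. The same letters were in 16 of 19 promoters of the cholesterol list, which fell. The 3 shown here belong to the P450, the conjugating enzyme and the receptor's regulator described above, with GCGTG or its complement CACGC in capitals.
CYP1A1: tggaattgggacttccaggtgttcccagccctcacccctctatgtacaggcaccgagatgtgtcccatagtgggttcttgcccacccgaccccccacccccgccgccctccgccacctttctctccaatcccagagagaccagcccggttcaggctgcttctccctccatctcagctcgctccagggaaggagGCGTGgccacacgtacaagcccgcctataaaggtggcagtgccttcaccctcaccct
UGT1A6: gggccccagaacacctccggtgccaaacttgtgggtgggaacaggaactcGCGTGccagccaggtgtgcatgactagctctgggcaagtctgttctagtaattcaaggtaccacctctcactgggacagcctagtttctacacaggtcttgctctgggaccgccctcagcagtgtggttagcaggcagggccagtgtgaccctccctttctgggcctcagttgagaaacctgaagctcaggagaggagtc
TIPARP: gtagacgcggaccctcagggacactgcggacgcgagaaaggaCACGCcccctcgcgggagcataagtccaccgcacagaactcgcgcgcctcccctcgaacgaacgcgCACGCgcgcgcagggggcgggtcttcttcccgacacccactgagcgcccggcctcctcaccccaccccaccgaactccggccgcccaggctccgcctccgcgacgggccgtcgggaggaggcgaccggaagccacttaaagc
They lie at chr15:74725529-74725778 on the minus strand, chr2:233691452-233691701 on the plus strand and chr3:156674340-156674589 on the plus strand. The first 2 hold 1 match each and TIPARP holds 2.

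The NRF2 targets formed the second group that rose almost throughout. Of 25 tested, 23 rose and none fell, with a median of 1.53, while PGD stood at 0.20 ± 0.03. The 23 included every tested member for glutathione synthesis, thioredoxin, haem breakdown and quinone or carbonyl reduction. TKT and TALDO1, of the non-oxidative pentose phosphate branch, rose by 0.64 ± 0.07 and 1.36 ± 0.09.

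HMOX1, which breaks haem down to biliverdin, iron and carbon monoxide, read 42811, 50672 and 50203 intensity units with IND, against 4433, 3586 and 3376 with DMSO. Cy5 was saturated on all 3 arrays, so that HMOX1 was at least 12.7-fold higher. SRXN1, which restores oxidised peroxiredoxins, read 19943, 26905 and 25554 intensity units with IND, against 1987, 2756 and 2636 with DMSO, a ratio of 3.30 ± 0.03. OSGIN1, an inhibitor of cell growth under oxidative stress, read 6657, 16547 and 19034 intensity units with IND, against 778, 2023 and 2260 with DMSO, a ratio of 3.07 ± 0.03. The arrays differed in brightness for OSGIN1 and its ratio hardly moved between them. Both subunits of glutamate-cysteine ligase, which makes the first bond of glutathione, rose, with GCLM at 3.03 ± 0.35 and GCLC at 1.96 ± 0.06. SLC7A11, which imports cystine for it, rose by 1.53 ± 0.04, and by 2.49 on its other probe.

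TXNRD1, thioredoxin reductase, had 10026, 1254 and 10810 intensity units with IND, against 2066, 254 and 2154 with DMSO. Its array 2 values were far dimmer in both channels, so that IND and DMSO values overlap across arrays, while the 3 ratios lay between 2.28 and 2.33. TXN, its substrate, rose by 1.41 ± 0.01 and GSR, glutathione reductase, by 0.70 ± 0.06. AKR1B10 and AKR1C3, which reduce carbonyls and quinones, rose by 2.73 ± 0.24 and 2.58 ± 0.07, and AKR1C1 was at least 8.26-fold higher with Cy5 saturated. The AKR1C genes are close copies, so a probe of one may bind the others. SQSTM1, the receptor of selective autophagy that also holds the inhibitor of NRF2, read 35435, 48248 and 48492 intensity units with IND, against 4520, 6742 and 7138 with DMSO, with saturation on 2 arrays and a ratio of 2.86 ± 0.10. The ferritin chains FTL and FTH1, which store iron, were at least 2.25-fold and 1.69-fold higher. MGST1, a membrane glutathione transferase, rose by 1.68 ± 0.07, EPHX1, which opens epoxides, by 1.14 ± 0.06, and PIR by 1.24 ± 0.09.

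The antioxidant element TGACNNNGC was present in 3 of 18 promoters of NRF2 targets, against 12.1% of all promoters of this length. The promoters shown are those of the glutathione and thioredoxin genes, with the element, or its complement, in capitals.
GCLM: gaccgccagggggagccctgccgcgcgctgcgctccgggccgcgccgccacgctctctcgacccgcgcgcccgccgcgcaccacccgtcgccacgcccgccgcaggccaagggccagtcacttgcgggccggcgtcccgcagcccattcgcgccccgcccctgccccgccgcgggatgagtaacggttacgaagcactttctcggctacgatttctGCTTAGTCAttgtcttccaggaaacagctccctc
TXNRD1: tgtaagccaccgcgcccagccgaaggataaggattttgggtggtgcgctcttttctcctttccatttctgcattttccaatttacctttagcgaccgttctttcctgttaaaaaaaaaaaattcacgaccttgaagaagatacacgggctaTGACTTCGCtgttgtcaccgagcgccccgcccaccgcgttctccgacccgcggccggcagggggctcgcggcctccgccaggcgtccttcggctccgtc
Their positions are chr1:93909431-93909680 on the minus strand and chr12:104215529-104215778 on the plus strand, with 1 match in each.

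Several of the highest ratios belonged to genes of neither list. LIM2, a membrane protein of the lens, read 5317, 4545 and 4576 intensity units with IND, against 303, 220 and 217 with DMSO, a ratio of 4.30 ± 0.14. SLC16A6, a monocarboxylate transporter, reached 3.82 ± 0.13 on both of its probes, with DMSO above background on 1 of 3 arrays. NKAIN1, a partner of the sodium pump, rose by 3.64 ± 0.31, MLPH, which links vesicles to myosin, by 3.61 ± 0.18, and SLC37A2, a sugar phosphate exchanger, by 3.28 ± 0.18. TIMP1, an inhibitor of matrix proteases, read 28229, 27828 and 25822 intensity units with IND, against 2966, 2880 and 2487 with DMSO, a ratio of 3.30 ± 0.07.

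**Figure D3:**
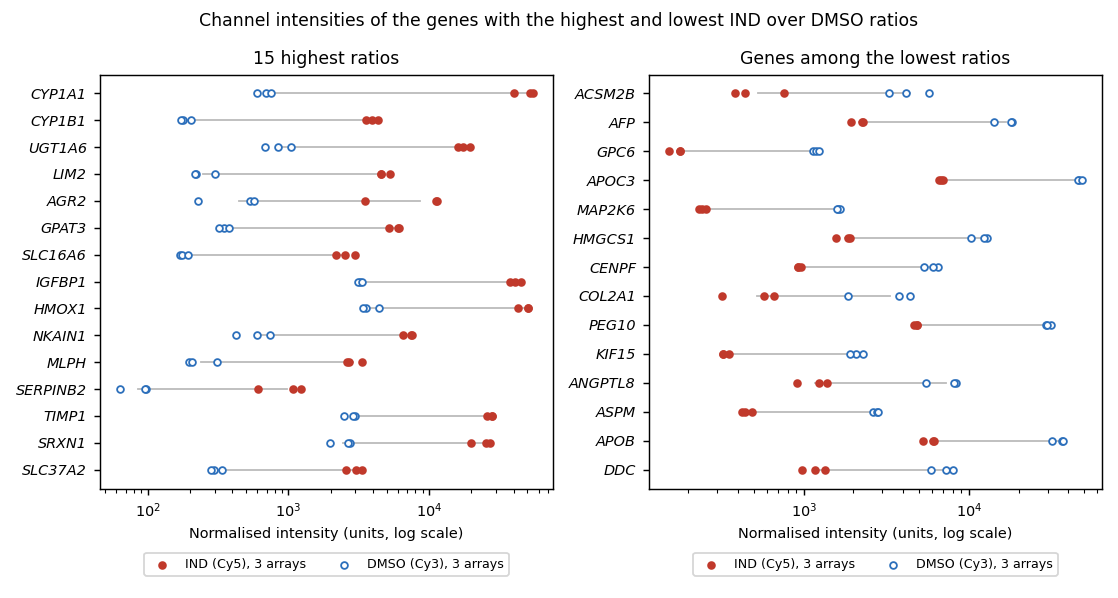
Normalised channel intensity (log axis) of the 15 genes with the highest ratios (left) and of genes among the lowest (right), with 3 filled points for IND and 3 open points for DMSO per gene and a grey line between their means. The filled and open points of a gene do not overlap, and Cy5 of CYP1A1 and HMOX1 is saturated on all 3 arrays.

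Other genes of drug handling moved in both directions. Among phase II transferases 4 of 18 rose and 6 fell, with UGT1A6 highest. SULT1A2, a phenol sulfotransferase, and GSTO1, an omega glutathione transferase, rose by 1.07 ± 0.07 and 0.67 ± 0.0071. The glutathione transferases GSTA1 and GSTA2, close copies, fell by 2.20 and 1.88 on the log2 scale, with GSTA1 at 1559, 1433 and 1405 intensity units with IND, against 6995, 6952 and 6243 with DMSO. UGT2B10, a glucuronosyltransferase of another family, read 7542, 7315 and 6776 intensity units with IND, against 23125, 22705 and 20555 with DMSO, a ratio of -1.62 ± 0.02. So the 2 glucuronosyltransferases named here moved in opposite directions, with no overlap of the channels in either.

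Of 17 other P450s and their regulators 5 rose and 1 fell. CYP2J2, which oxidises arachidonic acid, rose by 1.70 ± 0.09, CYP24A1, which inactivates vitamin D, by 1.60 ± 0.07, and CYP3A7, the fetal CYP3A form, by 1.06 ± 0.12. CYP51A1, the P450 of cholesterol synthesis, fell by 0.71 on the log2 scale, and did not pass with median centring. RXRA, the partner of many nuclear receptors, had -0.39 ± 0.12 and 0.20 on its other probe. CYP2C19 had -0.25 ± 0.04, with IND not above background. Among 18 hepatic transporters 5 rose and 6 fell, a balance of 5 to 4 without array 3. ABCG2, an efflux pump known to answer to AHR, read 4067, 3453 and 4532 intensity units with IND, against 814, 736 and 932 with DMSO, a ratio of 2.28 ± 0.05. The conjugate pumps ABCC2 and ABCC3 rose by 1.24 ± 0.07 and 1.12 ± 0.07, and the glucose carrier SLC2A1 by 1.12 ± 0.10. The uptake carriers SLC22A7 and SLC22A3 fell, at -1.74 ± 0.18 and -1.56 ± 0.09, and so did ABCC6, at -0.90 ± 0.014.

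Of 15 genes of bile acid handling and sterol nuclear receptors, none rose and 6 fell. AKR1D1, the reductase that shapes bile acids and steroid hormones, read 214, 300 and 331 intensity units with IND, against 1173, 1724 and 1793 with DMSO, a ratio of -2.47 ± 0.04. ABCA1, which exports cholesterol, fell by 1.65 on the log2 scale. NR1H4, the bile acid receptor, passed at -1.75 ± 1.51, but its ratios were -2.37, -0.03 and -2.86 on the 3 arrays. On array 2 both channels of NR1H4 were near background, at 122 intensity units with IND and 124 with DMSO. With a trended robust prior NR1H4 no longer passed (adjusted p 0.187 by limma). The highest members did not pass, with the hydroxylase CYP39A1 at 0.53 ± 0.06, the repressor NR0B2 at 0.29 ± 0.09 and the oxysterol receptor NR1H3 at 0.13 ± 0.06.

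Genes of cholesterol synthesis and uptake fell together. Of 25 tested, 19 fell and none rose, with a median of -1.20, against 14.2% of all genes falling. HMGCS1, which makes the HMG-CoA that enters the pathway, read 1921, 1860 and 1580 intensity units with IND, against 12816, 12376 and 10341 with DMSO, a ratio of -2.73 ± 0.015, and -2.65 on its other probe. The channels of HMGCS1 were far apart on every array. Later enzymes fell too, with FDPS, of farnesyl synthesis, at -1.52 ± 0.24. PMVK at -0.14 ± 0.04 and GGPS1 at -0.17 ± 0.08 did not pass.

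The CCAAT box, bound by NF-Y, a factor that works beside the sterol regulators, was present in 15 of 19 promoters of this list, against 35.1% of all. Those of the pathway's entry and its middle are shown, with CCAAT or its complement ATTGG in capitals. FDPS was chosen for this after its value was seen.
HMGCS1: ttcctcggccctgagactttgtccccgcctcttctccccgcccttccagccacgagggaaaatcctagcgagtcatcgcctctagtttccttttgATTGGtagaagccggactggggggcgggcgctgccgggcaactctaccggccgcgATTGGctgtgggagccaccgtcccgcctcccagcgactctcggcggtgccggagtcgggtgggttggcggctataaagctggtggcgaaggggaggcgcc
FDPS: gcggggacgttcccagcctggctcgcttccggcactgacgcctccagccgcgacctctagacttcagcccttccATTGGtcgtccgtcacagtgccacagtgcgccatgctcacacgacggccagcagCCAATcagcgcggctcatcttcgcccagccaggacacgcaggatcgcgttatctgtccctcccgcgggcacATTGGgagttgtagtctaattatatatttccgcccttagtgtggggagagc
They lie at chr5:43313413-43313662 on the minus strand and chr1:155308616-155308865 on the plus strand and hold 2 and 3 matches.

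Of 22 genes of fatty acid and triglyceride synthesis 16 fell and 1 rose, with a median of -0.99. SCD, which makes oleate, read 4789, 4430 and 3675 intensity units with IND, against 23840, 23734 and 19444 with DMSO, a ratio of -2.38 ± 0.06. FADS2, the first desaturase of long polyunsaturated fatty acids, read 5571, 4973 and 4070 intensity units with IND, against 26955, 27013 and 21726 with DMSO, a ratio of -2.38 ± 0.09. GPAM, the mitochondrial acyltransferase that starts glycerolipid synthesis, fell by 1.98 on the log2 scale, while GPAT3, its counterpart of the endoplasmic reticulum, was the 1 that rose. Both GPAM and GPAT3 had channels that did not overlap. LPIN2 at 0.19 ± 0.06 and AGPAT2 at 0.14 ± 0.10 did not pass.

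Fatty acid oxidation and PPARA targets split, with 5 of 22 rising and 6 falling. CPT1A, which admits fatty acids to mitochondria, read 1621, 1662 and 1598 intensity units with IND, against 668, 643 and 512 with DMSO, a ratio of 1.43 ± 0.19. PLIN2, a coat protein of lipid droplets, rose by 1.17 ± 0.10, and VNN1, a pantetheinase under PPARA, by 1.17 ± 0.29. FABP1, the fatty acid carrier of the liver, read 11988, 11074 and 10922 intensity units with IND, against 38517, 36138 and 34304 with DMSO, a ratio of -1.68 ± 0.03, and EHHADH, of peroxisomal oxidation, fell by 1.00 on the log2 scale. ACSL1, which activates fatty acids, fell as well, at -0.95 ± 0.07.

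Lipoprotein genes fell more often, with 2 of 20 rising and 8 falling. APOB, the backbone of very low density lipoprotein, read 6071, 6117 and 5247 intensity units with IND, against 36823, 37343 and 31758 with DMSO, a ratio of -2.60 ± 0.0065. APOC3, which slows the clearance of triglycerides, read 6784, 6596 and 6944 intensity units with IND, against 46174, 46007 and 48224 with DMSO, a ratio of -2.79 ± 0.02. APOH fell by 2.11 on the log2 scale. APOC1 and APOM rose by 1.26 ± 0.06 and 0.98 ± 0.06, and APOC2, which activates lipoprotein lipase, did not pass at 0.27 ± 0.04. ANGPTL8, an inhibitor of lipoprotein lipase, read 909, 1384 and 1233 intensity units with IND, against 5489, 8300 and 8143 with DMSO, a ratio of -2.63 ± 0.08.

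Genes of other plasma proteins fell in large part. Of 26 carriers and acute phase proteins 18 fell and 1 rose, with a median of -0.93. AFP, the fetal counterpart of albumin, read 1929, 2245 and 2299 intensity units with IND, against 14195, 18189 and 18077 with DMSO, a ratio of -2.96 ± 0.07. SERPINA7, which carries thyroid hormone, read 652, 2007 and 2231 intensity units with IND, against 3183, 10592 and 12751 with DMSO, a ratio of -2.40 ± 0.11, with both channels dimmer on array 1. SAA4, an amyloid protein that is made constitutively, was the 1 that rose, by 1.11 ± 0.08. ITIH1, a chain that binds hyaluronan, fell, at -1.79 ± 0.18, and ITIH4, of the same family, did not pass at 0.16 ± 0.05. AMBP, at 0.46 ± 0.06 with Cy5 saturated on all arrays, did not pass.

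Of 24 genes of coagulation and fibrinolysis 14 fell and 4 rose. CPB2, an inhibitor of fibrinolysis, read 1366, 1118 and 1118 intensity units with IND, against 8124, 6685 and 6538 with DMSO, a ratio of -2.57 ± 0.02. The fibrinogen chain FGG and plasminogen (PLG) fell by 2.15 and 1.82 on the log2 scale. Those that rose included F3, the tissue factor that starts clotting, at 0.67 ± 0.12. PLAUR, the urokinase receptor, rose by 1.72 ± 0.39 and PLAU, urokinase, by 1.10 ± 0.06. SERPINB2, which inhibits urokinase, is described above.

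Complement genes went both ways, with 10 of 21 falling and 5 rising. C4BPA and CFI, which hold complement in check in plasma, fell by 2.08 and 1.91 on the log2 scale. C6, of the lytic complex, had -1.80 ± 0.06, with IND above background on 1 of 3 arrays. CD55, an inhibitor of complement on cell surfaces, rose by 1.21 ± 0.04, MASP1 by 1.20 ± 0.05 and C1S by 1.18 ± 0.03.

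Amino acid breakdown and the urea cycle had 11 of 22 genes falling and 4 rising. ACSM2B, a mitochondrial acyl-CoA synthetase, read 760, 439 and 384 intensity units with IND, against 5738, 4167 and 3285 with DMSO, a ratio of -3.09 ± 0.16, which its close copy ACSM2A may share. HAL, which opens the breakdown of histidine, was at least 2.87-fold lower, as IND did not exceed background. NAGS, which makes the activator of the urea cycle, rose by 1.67 ± 0.05. FAH, the last enzyme of tyrosine breakdown, read 6969, 13804 and 15101 intensity units with IND, against 1890, 3820 and 4269 with DMSO, a ratio of 1.85 ± 0.03. The FAH ratio varied little while its brightness differed between arrays. TAT, the tyrosine transaminase, was at least 1.97-fold higher, with DMSO not above background, and did not pass with each spot's own background SD, an alternative chosen after seeing the data. DDC, an amino acid decarboxylase outside the list, read 979, 1340 and 1168 intensity units with IND, against 5894, 8037 and 7241 with DMSO, a ratio of -2.60 ± 0.03.

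The factors that define hepatocytes had 2 of 20 rising and 3 falling, near the shares of 11.2% and 14.2% over all genes. CEBPA, a factor of liver differentiation, read 2603, 4356 and 3550 intensity units with IND, against 7706, 16679 and 13324 with DMSO, a ratio of -1.80 ± 0.21, but its other probes ranged from -1.80 to 0.26. HNF4G fell by 1.16 on the log2 scale, and ZGPAT rose by 0.60 ± 0.08. ZGPAT did not pass without array 3 (0.55). ESRRA, at 0.40 ± 0.11, did not pass.

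Genes of G2 and mitosis made up the most uniform list. Of 40 tested, 39 fell and none rose, with a median of -1.58, and BUB3, a checkpoint protein, stood at -0.06 ± 0.08. CENPF, of the kinetochore, read 960, 918 and 920 intensity units with IND, against 6466, 5326 and 6049 with DMSO, a ratio of -2.67 ± 0.12. KIF15, a spindle kinesin, read 356, 327 and 324 intensity units with IND, against 2292, 2064 and 1915 with DMSO, a ratio of -2.64 ± 0.07. TOP2A, the topoisomerase that untangles replicated chromosomes, read 1726, 1505 and 1573 intensity units with IND, against 10137, 9057 and 9948 with DMSO, a ratio of -2.60 ± 0.05. For these 3 genes the highest IND value was less than the lowest DMSO value on any array. The smallest of the falls were those of PTTG1, at -0.69 ± 0.09, and the kinase AURKA, at -1.06 ± 0.03. ASPM, a spindle pole protein outside the list, had -2.60 ± 0.06 on the probe used and -1.28 on the other.

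Promoters of this list often held both the CCAAT box and TTTGAA, the core of the element known as CHR, through which cell cycle genes are repressed. TTTGAA was in 18 of 33 promoters, against 8.76% of all, CCAAT in 25 of 33, and both in 15 of 33, against 3.57% of all. TTTGAA was in 1 of 36 promoters of replication genes. The 3 shown have both motifs, or their complements TTCAAA and ATTGG, in capitals, and HMMR and CCNB2 were chosen after their values were seen.
TOP2A: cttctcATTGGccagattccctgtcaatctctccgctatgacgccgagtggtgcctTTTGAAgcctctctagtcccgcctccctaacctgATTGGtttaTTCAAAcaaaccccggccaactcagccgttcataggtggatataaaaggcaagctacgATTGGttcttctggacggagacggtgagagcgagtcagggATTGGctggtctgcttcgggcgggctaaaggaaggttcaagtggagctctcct
HMMR: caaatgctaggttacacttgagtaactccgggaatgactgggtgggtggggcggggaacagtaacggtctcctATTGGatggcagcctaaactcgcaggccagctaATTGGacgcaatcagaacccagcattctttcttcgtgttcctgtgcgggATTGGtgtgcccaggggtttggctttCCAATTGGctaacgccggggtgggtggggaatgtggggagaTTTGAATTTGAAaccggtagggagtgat
CCNB2: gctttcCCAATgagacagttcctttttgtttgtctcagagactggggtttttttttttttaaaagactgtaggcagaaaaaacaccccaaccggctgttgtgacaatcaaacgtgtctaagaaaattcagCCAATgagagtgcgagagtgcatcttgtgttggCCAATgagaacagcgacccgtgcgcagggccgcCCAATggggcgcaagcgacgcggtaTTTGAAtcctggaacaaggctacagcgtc
They lie at chr17:40417897-40418146 on the minus strand, chr5:163460382-163460631 on the plus strand and chr15:59104896-59105145 on the plus strand. TTTGAA occurred 2, 2 and 1 times and CCAAT 4, 5 and 4 times. HMMR, a spindle protein, had a ratio of -2.29 ± 0.05 and CCNB2, a mitotic cyclin, of -1.54 ± 0.04.

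DNA replication and nucleotide supply had 33 of 39 genes falling and none rising, with a median of -0.96. MCM2, a subunit of the helicase, read 3638, 2989 and 2714 intensity units with IND, against 13035, 10574 and 9778 with DMSO, a ratio of -1.84 ± 0.014. MCM7, another subunit, read 5582, 5187 and 6588 intensity units with IND, against 18749, 16855 and 22813 with DMSO, a ratio of -1.75 ± 0.05. In both the channels were apart on every array. RFC3, of the clamp loader, had -1.73 ± 0.04 and -0.46 on its other probe. ORC1, of the origin complex, had 0.83, -0.44 and -0.22 on the 3 arrays and did not pass, and neither did RFC2, at -0.26 ± 0.08, or the polymerase subunit POLE2, at -0.16 ± 0.04.

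Of 34 DNA repair genes 20 fell and 2 rose. RAD51AP1, a helper of homologous recombination, read 251, 351 and 322 intensity units with IND, against 1183, 1526 and 1526 with DMSO, a ratio of -2.20 ± 0.07, and the helicase BLM fell by 1.79 on the log2 scale. BARD1, a partner in ubiquitin transfer at breaks, fell as well, at -1.77 ± 0.09. XRCC2 had 0.23 ± 0.04 on the probe used and -0.59 on the other. ERCC1, a nuclease subunit of excision repair, rose by 0.80 ± 0.11. OGG1, which removes oxidised guanine, rose by 0.69 ± 0.07, but stood at 0.41 as the mean of its probes and then did not pass.

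Regulators of G1 were mixed, with 4 of 21 rising and 9 falling. CDKN1A (p21), which halts the cyclin kinases, read 24324, 20216 and 17235 intensity units with IND, against 4796, 3835 and 3261 with DMSO, a ratio of 2.38 ± 0.03. CDKN2A and CDKN2B, inhibitors of CDK4, rose by 1.49 ± 0.13 and 1.15 ± 0.07. MYBL2 and E2F7, factors of the S and G2 programmes, fell by 1.87 and 1.40 on the log2 scale, and CDKN2C, a further CDK inhibitor, had -1.22 ± 0.10. Of 30 targets of the tumour suppressor p53, CDKN1A among them, 14 rose and 1 fell, with a median of 0.47. SERTAD1 and the kinase PLK3 rose by 2.37 ± 0.09 and 1.84 ± 0.05. SESN1, at -0.24 ± 0.06, and SPATA18, at -0.28 ± 0.07, did not pass, and CCNG1 fell by 0.90 on the log2 scale, with IND above background on 2 of 3 arrays.

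Replication-dependent histone genes, whose transcripts rise in S phase, rose more often than they fell. Of 24, 13 rose and 1 fell, with a median of 0.62. The linker histones H1-2, H1-4 and H1-3 rose by 2.46 ± 0.10, 2.29 ± 0.05 and 2.09 ± 0.19, and H1-2 read 3392, 3719 and 3923 intensity units with IND, against 584, 661 and 772 with DMSO. H4C3 fell by 1.36 on the log2 scale, and H3C2, at 0.13 ± 0.04, and H3C8, at 0.04 ± 0.07, did not pass. Core histone genes are near copies, so probes may bind several of them.

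**Figure D4:**
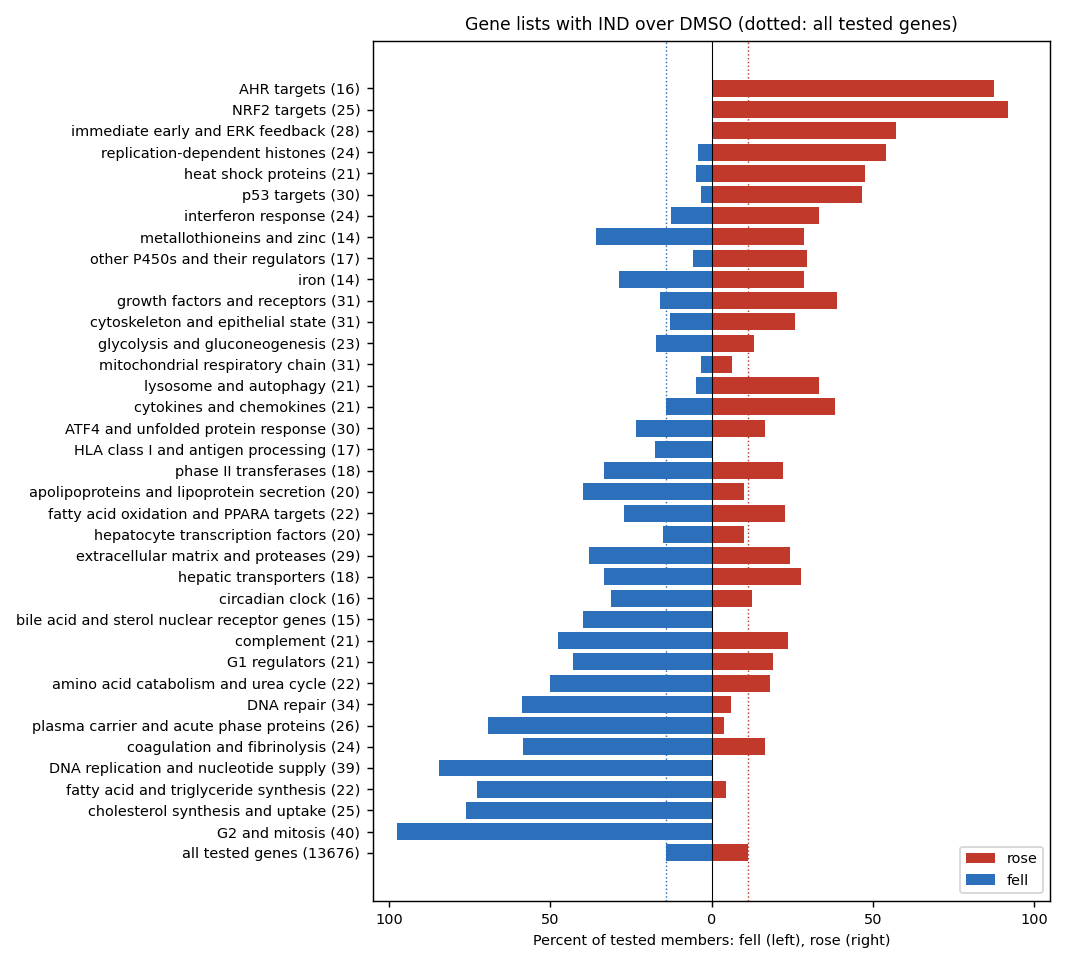
Percent of tested members that rose (right) or fell (left) in each of the 36 gene lists, with the number tested in parentheses, sorted by median log2 ratio. Dotted lines mark the shares over all 13676 genes (11.2% rose, 14.2% fell). AHR and NRF2 targets stand at the top, and G2 and mitosis at the bottom.

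Early response genes and growth signals rose in many cases. Of 28 immediate early genes and feedback regulators of ERK, 16 rose and none fell, with a median of 0.71. DUSP5, a phosphatase of nuclear ERK, read 3180, 1574 and 2558 intensity units with IND, against 361, 206 and 347 with DMSO, a ratio of 2.99 ± 0.14. The transcription factors FOSL1 and EGR1 rose by 2.35 ± 0.18 and 2.28 ± 0.11, with EGR1 at 7966, 8077 and 7752 intensity units with IND, against 1764, 1675 and 1478 with DMSO. ETV5, at -0.11 ± 0.06, and SPRY1, at -0.38 ± 0.12, did not pass. PHLDA1 had -0.11 ± 0.05 on the probe used and from 0.36 to 1.14 on the others.

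Growth factors and their receptors had 12 of 31 genes rising and 5 falling. AREG, a ligand of the EGF receptor, read 5545, 5058 and 4626 intensity units with IND, against 826, 724 and 639 with DMSO, a ratio of 2.80 ± 0.05. GDF15, a stress hormone, was at least 9.02-fold higher, with Cy5 saturated on all 3 arrays. FGFR3 and ERBB2, both receptor kinases, fell by 1.27 and 1.01 on the log2 scale. IGF2, a fetal growth factor, had -1.29 ± 0.25 with DMSO saturated on 2 of 3 arrays.

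Among cytokines and chemokines 8 of 21 rose and 3 fell. LIF and IL11, both of the interleukin 6 family, rose by 2.70 ± 0.15 and 2.48 ± 0.10, and IL11 read 3936, 3643 and 3696 intensity units with IND, against 747, 604 and 678 with DMSO. The other probe of LIF gave 1.25. IL6R, the interleukin 6 receptor, rose by 2.04 ± 0.13. TNFAIP3, a brake on NF-kB signalling, fell by 1.31 and the chemokine CX3CL1 by 0.93 on the log2 scale. CX3CL1, and CCL20 at -0.65 ± 0.02, did not pass with median centring.

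Heat shock genes had 10 of 21 rising and 1 falling, with HSPB8 at 1.41 ± 0.09, HSPA1A at 1.36 ± 0.06 and BAG3 at 1.05 ± 0.013. HSPA1A has a near copy, HSPA1B. HSPD1, a chaperone of mitochondria, had -0.69 ± 0.06, and did not pass with median centring or as the mean of its probes. HSP90AA1, at -0.19 ± 0.15, and HSF2, at -0.25 ± 0.11, did not pass. Genes of ATF4 and the unfolded protein response were split, with 5 of 30 rising and 7 falling, or 7 and 6 with median centring. The first counts are 16.7% and 23.3%, against 11.2% and 14.2% over all genes. SLC3A2, the partner of SLC7A5 and SLC7A11, read 35649, 39896 and 42676 intensity units with IND, against 8782, 10911 and 10540 with DMSO, a ratio of 1.97 ± 0.09. The stress genes PPP1R15A and ATF3 rose by 1.90 ± 0.08 and 1.76 ± 0.05. The chaperone HSP90B1 of the endoplasmic reticulum read 10479, 9672 and 9290 intensity units with IND, against 37077, 35837 and 36882 with DMSO, a ratio of -1.90 ± 0.08, and PHGDH, of serine synthesis, fell by 1.65 on the log2 scale. PDIA4, a disulfide isomerase, had -1.15 ± 0.06.

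Metal genes were divided. Of 14 genes of metallothioneins and zinc 4 rose and 5 fell, or 6 and 4 with median centring. With saturated probes left out, an alternative chosen after seeing the data, 1 of 11 rose and 5 fell, and the median was -0.15 in place of 0.23. MT2A was at least 3.82-fold higher, with Cy5 saturated. MTF1, the zinc-sensing factor of these genes, rose by 0.81 ± 0.04, and MT1A by 0.77 ± 0.06, with saturation on 2 arrays. MT1F read 4309, 3125 and 3417 intensity units with IND, against 19135, 16496 and 16724 with DMSO, a ratio of -2.28 ± 0.13, and MT1G had -1.31 ± 0.20 on the probe used and 0.35 on the other. SLC39A14, a zinc and iron importer, had -1.09 ± 0.05. Metallothionein probes may bind several of these close copies. Of 14 iron genes 4 rose and 4 fell, with the ferritins among those that rose, and HAMP, which encodes the iron hormone hepcidin, rose by 1.19 ± 0.14, with levels that overlapped across arrays. TMPRSS6 and TFR2, which steer hepcidin, fell, at -1.20 ± 0.09 and -0.95 ± 0.16, and SLC11A2, an iron importer, had -0.87 ± 0.14, with other probes from -1.21 to -0.09.

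Lysosome and autophagy genes had 7 of 21 rising and 1 falling. GABARAPL1, of autophagosome membranes, read 10203, 10032 and 8714 intensity units with IND, against 2531, 2320 and 1898 with DMSO, a ratio of 2.11 ± 0.09, and GLA, a lysosomal galactosidase, rose by 1.44 ± 0.04. CTSH, a lysosomal protease, fell by 0.99 on the log2 scale, and NPC2, at -0.58 ± 0.08, and ATG5, at -0.38 ± 0.04, did not pass. Glycolysis and gluconeogenesis had 3 of 23 rising and 4 falling, near the shares of 11.2% and 14.2% over all genes. With median centring 8 of this list rose and 2 fell. HK1, the hexokinase of most tissues, read 944, 913 and 1000 intensity units with IND, against 226, 213 and 212 with DMSO, a ratio of 2.13 ± 0.10, while HK2 and PKLR, the liver form of pyruvate kinase, fell by 0.74 and 1.29 on the log2 scale. PFKL, the liver phosphofructokinase, had -0.64 ± 0.06, and neither it nor HK2 passed with median centring. GPI rose by 0.66 ± 0.08, and PKM, the other pyruvate kinase, was at least 1.7-fold higher, with Cy5 saturated.

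The response was set beside that to BF, another hydrocarbon of the study. BF was chosen because its AHR target response was the most like that of IND. The AHR differences below are therefore not independent of that choice. IND was on another platform, so platform and compound cannot be told apart, and neither dose is given. Whether the arrays shared DMSO RNA is not stated. On probes with the same name on both platforms, 12745 genes were tested by a limma contrast of 3 IND against 3 BF arrays. Of these, 2789 were higher and 2170 lower in IND at the same thresholds, or 21.9% and 17% of the genes. The share of these genes that was higher in IND was 56.2%, and 41.0% with median centring, which brought the median of all genes to -0.18 on the log2 scale. The 6 highest differences came from genes with low ratios for BF, from -4.65 for CTSD to -2.59 for CLDN4, against -0.06 and 1.94 with IND.

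AHR targets had lower ratios with IND in 8 of 15 cases and higher in 1. CYP1A2 was not among those tested, because neither channel exceeded background on any BF array. Its measured ratio was 2.84 ± 0.25 with IND and 0.20 ± 0.07 with BF. DMSO was not above background with IND either, so the size of that difference cannot be read. For CYP1B1, AHRR and SERPINB2, among those called lower, DMSO was not above background on any BF array. Their measured ratios were 4.41 ± 0.26 with IND and 6.40 ± 0.28 with BF for CYP1B1, 2.67 ± 0.40 with IND and 4.11 ± 0.11 with BF for AHRR, and 3.47 ± 0.22 with IND and 5.91 ± 0.38 with BF for SERPINB2. The BF ratios of these 3 rest on background, and so does that of SERPINB2 with IND, so the size of the difference cannot be read. TIPARP stood at 0.95 ± 0.06 with IND and 1.91 ± 0.04 with BF, and GPAT3 4.05 ± 0.06 with IND and 4.83 ± 0.06 with BF. With all 27 arrays in the fit GPAT3 and AGR2 no longer passed. CYP2S1 was the 1 higher with IND, by 0.66 (95% interval 0.44 to 0.89), and did not pass with median centring or without IND array 3. UGT1A6 did not pass on its probe in the contrast, at 4.57 ± 0.11 with IND and 4.27 ± 0.10 with BF. That probe differed from the probe used over DMSO, which had 4.39 ± 0.16 with IND and 3.20 ± 0.05 with BF. The difference on the latter probe was not tested. ALDH3A1 did not pass, and no size can be read for it either, as DMSO was not above background on any BF array. CYP1A1 was saturated on all 6 arrays, so no difference can be read.

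NRF2 targets had higher ratios with IND in 12 of 25 cases and lower in 1. OSGIN1 stood at 3.07 ± 0.03 with IND and 0.29 ± 0.09 with BF, and HMOX1 at 3.66 ± 0.34 with IND, saturated, and 1.31 ± 0.09 with BF. EPHX1 was higher with IND by 1.14 (95% interval 1.03 to 1.26), and TXNRD1 stood at 2.30 ± 0.02 with IND and 1.35 ± 0.06 with BF. SRXN1 differed by -0.01 (95% interval -0.12 to 0.11) and GCLM by -0.19 (95% interval -0.52 to 0.14), neither of which passed. With median centring TXNRD1, SQSTM1, AKR1C3, GSR and PGD lost the call and stayed higher with IND. FTH1, among the 12, was saturated on all 6 arrays, so no difference can be read from it. Its probe in the contrast differed from the probe used over DMSO, which had 0.76 ± 0.07 with IND and 1.26 ± 0.09 with BF. AKR1C1, also among the 12, had 3.11 ± 0.05 with IND and 1.16 ± 0.06 with BF in the contrast. On the probe used over DMSO, saturated with both compounds, AKR1C1 had 3.05 ± 0.06 with IND and 2.56 ± 0.11 with BF. AKR1B10, the 1 that was lower, did not pass without IND array 1.

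Across all 9 compounds, given as measured at doses that are not stated, the HMOX1 ratio was 3.66 with IND and between -0.84 and 1.31 with the other compounds. For OSGIN1 it was 3.07 with IND and between 0.29 and 0.82 with the others. Not every NRF2 target was highest with IND. GCLM had 3.03 with IND and 3.22 with BF, and TXN had 1.41 with IND and 1.75 with BF. MGST1 had 1.68 with IND and 2.14 with BF. CYP1A1 was saturated in Cy5 on 3 arrays with IND, 3 with BF, 2 with chrysene, 2 with benzo[a]anthracene and 1 with benzo[a]pyrene, so its ratios are not set in order. Among compounds with no saturated array its ratio was 3.45 with dibenzo[a,h]anthracene, 2.90 with 3-methylcholanthrene, 2.63 with phenanthrene and 0.47 with naphthalene. Arrays of some compounds were far dimmer. The median Cy5 spot read 70 to 84 units with dibenzo[a,h]anthracene, 148 to 164 with 3-methylcholanthrene and 125 to 142 with naphthalene, against 445 to 546 with IND. Whether brightness bears on these ratios, or on those of HMOX1 and OSGIN1, was not tested. The differences across platforms were not tested beyond BF.

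**Figure D5:**
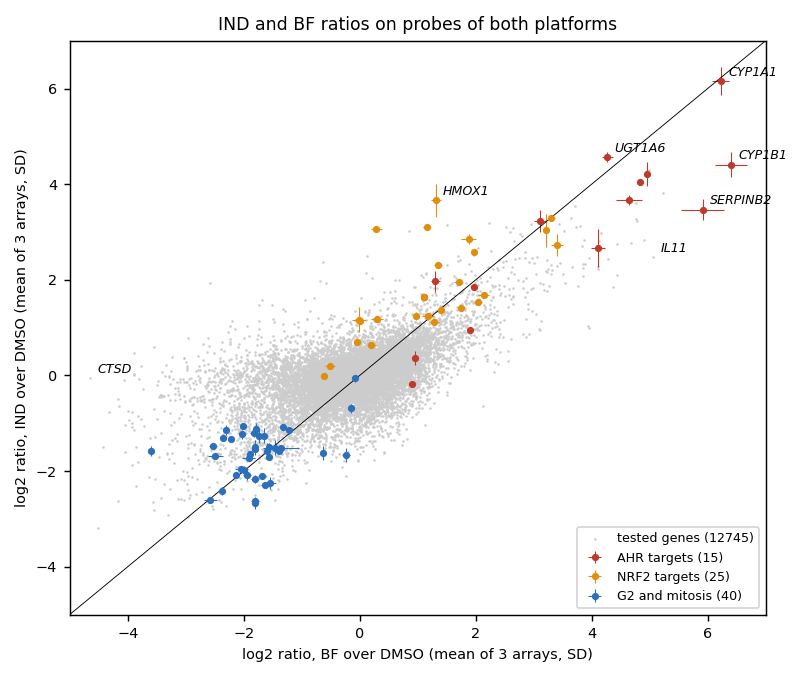
Mean log2 ratio over DMSO with IND (vertical axis) against that with BF (horizontal axis) for 12745 genes on probes of both platforms, with SDs of 3 arrays for the members of 3 lists and a line of equal ratios. The 8 AHR targets called lower with IND lie below the line, NRF2 targets such as HMOX1 lie above it, and the platform differs between the axes.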

How the data were processed

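RNA of HepG2 cells, extracted with Trizol per the labels, was hybridised to 2-colour Agilent arrays. The deposited scanner tables hold spot and local background intensity for Cy5 and Cy3, not normalised, and the percent of saturated pixels per spot, per the file headers. Scanner software and genome build are not given in the sources used here, and the authors' own log ratios were not used here, since their entries could not be tied to spots. Intensities were corrected with normexp (offset 50) and loess within each array in limma 3.58.1 (R 4.3.3). Control spots were left out. A probe was tested if it exceeded background by 2 background SDs (the array's median SD) in Cy5 or in Cy3, on 2 or more of the 3 arrays, and the brightest probe stood for its gene. Probes were named through RefSeq. The brightest probe was chosen anew in each comparison and alternative that used 1 probe per gene. A gene may therefore be read on different probes in different comparisons. The mean ratio was tested against 0 by limma with Benjamini-Hochberg adjustment over all genes, at adjusted p under 0.05 and 1.5-fold. As Cy3 held the control RNA, the test measures the spread of the ratios between arrays. Whether this takes in the spread of control samples is not known, as sharing of DMSO RNA between arrays is not stated. Spots with over 20 percent of pixels saturated counted as saturated. Tables and figures used Python 3.11.15, pandas 2.3.3, numpy 2.4.6 and matplotlib 3.10.9, and the fit was tested on simulated data.

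The genes named are the 15 genes with the highest and the 15 with the lowest ratio that passed with 1 sign on all arrays and a brighter channel above background on all of them, all AHR and NRF2 targets, and up to 3 highest and 3 lowest of each other list. For IND minus BF they are the 6 highest and 6 lowest differences on unsaturated probes, and the AHR list. Some genes that these rules select are not reported here. The gene lists and their members were chosen with earlier results of these data known. Alternatives covered background correction, normalisation, filters, probe choice, weights, prior, threshold and single arrays left out. The labels do not say whether array numbers pair IND with BF arrays. Residuals of same-numbered arrays correlated at 0.0233, 0.0115 and -0.0241, so no shared effect of the number was visible. With 3 arrays per compound this cannot show that the arrays were unpaired. Precision is limited by the number of arrays.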

Additional observations from a re-analysis of the deposited data

Results flagged for a closer look

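The contrast of IND with BF was singled out because the ratios of the compounds over DMSO differed by a test of the difference itself, in 2789 genes that were higher and 2170 that were lower in IND. Platform and compound cannot be told apart in any of these. The highest differences on unsaturated probes were 4.59 for CTSD, a lysosomal protease, 4.53 for CLDN4, a tight junction protein, 4.50 for NOC2LP2, 4.37 for LYPLA2, 4.15 for BCL2L1, a guard against apoptosis, and 3.96 for TXLNA. The lowest were -2.77 for ANKRD12, -2.59 for IL11, -2.25 for BIRC3, -2.19 for EEA1, -2.15 for CWC22 and -2.11 for KTN1. IL11 was high with both compounds, at 2.48 ± 0.10 with IND and 5.07 ± 0.07 with BF.

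In the AHR list, differences that passed were -1.99 for CYP1B1, -1.44 for AHRR, -0.96 for TIPARP, 0.66 for CYP2S1, -1.08 for NFE2L2, -0.78 for GPAT3, -2.44 for SERPINB2, -0.97 for IGFBP1 and -0.75 for AGR2. IGFBP1 was saturated on 4 of the 6 arrays. For CYP1B1, AHRR and SERPINB2 DMSO was not above background on any BF array, so their differences are measured values whose size cannot be read.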

How the results depend on the processing

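Of the values of named genes under the alternatives to IND over DMSO, 4539 kept their direction and side of the threshold, 56 no longer passed, 46 newly passed and none reversed. The changed fold thresholds and the trended prior reuse the same ratios and could not reverse a direction. Scaling between arrays leaves the ratio of each probe unchanged. With no minimum fold 5336 genes rose and 5237 fell, and 316 list members rose. With a 2-fold threshold 553 genes rose and 797 fell, and 122 list members rose and 184 fell. Leaving out 1 array at a time gave 1530 to 1566 genes that rose and 1920 to 1981 that fell, and 189 to 194 list members that rose and 276 to 284 that fell. For IND minus BF, median centring gave 3637 lower genes. Leaving out 1 array gave 2749 to 2809 higher and 2133 to 2189 lower, and the replicate block gave 2789 and 2170 and changed no call. FTH1, at 0.89, reversed without BF replicate 1 (-0.56), 2 (-0.49) and 3 (-0.46), and ranged up to 0.90 without an IND array. The brightest probe was chosen anew in each setting. The probe of FTH1 used over DMSO had 0.76 with IND and 1.26 with BF, against 1.19 and 0.30 on the contrast probe. Whether a change of probe gave the reversal was not tested. The local background SD, the removal of saturated probes and the fit of all 27 arrays to IND over DMSO were chosen after seeing the data. The authors' log2 ratios were not run as an alternative. Dim DMSO signals limit ratios to bounds in genes such as SERPINB2.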

Other observations

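The matrix, the cytoskeleton and keratins were described by 2 further lists. Of 29 genes of the extracellular matrix and its proteases 7 rose and 11 fell. SPP1 (osteopontin) read 8292, 8836 and 8823 intensity units with IND, against 1497, 1689 and 1691 with DMSO, a ratio of 2.41 ± 0.05, and the integrin chain ITGA2 rose by 2.26 ± 0.06. The heparan sulfate carriers GPC3 and GPC6 were lower, GPC3 at -1.88 ± 0.09 and GPC6 at least 5.73-fold lower, as IND did not exceed background. COL2A1, a collagen of cartilage outside the list, read 323, 578 and 659 intensity units with IND, against 1846, 3768 and 4402 with DMSO, a ratio of -2.65 ± 0.12. COL18A1 had -1.76 ± 0.12 on the probe used and -0.39 on the other. Of 31 genes of cytoskeleton and epithelial state 8 rose and 4 fell. KRT19, a keratin of bile duct cells, read 34313, 31760 and 29655 intensity units with IND, against 9943, 9271 and 8683 with DMSO, a ratio of 1.78 ± 0.0077, while SOX9, another marker of these cells, had -0.19 ± 0.03 and did not pass. The calcium-binding proteins S100A11 and S100A6 rose by 2.45 ± 0.22 and 1.47 ± 0.06. The tight junction protein CLDN1 and the nuclear lamin LMNB1 fell by 1.76 and 1.81 on the log2 scale. LMNB2, at -0.80 ± 0.08, did not pass with median centring.

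Interferon response genes were mixed, with 8 of 24 rising and 3 falling, and their best known members took both sides. OAS1 read 5428, 5574 and 5108 intensity units with IND, against 1488, 1448 and 1277 with DMSO, a ratio of 1.94 ± 0.07, and IFIT1 had -1.58, -1.37 and -1.55 on the 3 arrays, a mean ratio of -1.50 ± 0.11. OAS2 was at least 1.62-fold higher, with DMSO not above background, and IRF9 rose by 1.08 ± 0.05. USP18 and HERC6 fell, at -0.64 ± 0.02 and -0.72 ± 0.18, with IND above background on 1 of 3 arrays for HERC6. Calls were few in the respiratory chain, with 2 of 31 rising and 1 falling. HLA class I and antigen processing had none of 17 rising and 3 falling (17.6%), near the 14.2% of all genes that fell. In the chain NDUFV2 and COX4I1 rose by 1.06 ± 0.04 and 0.68 ± 0.09, UQCRC2 had -0.71 ± 0.09, and SDHB at 0.44 ± 0.07, CYC1 at -0.24 ± 0.12 and SDHD at -0.37 ± 0.04 did not pass. In antigen processing ERAP2, ERAP1 and CD74 fell, at -0.83 ± 0.02, -0.73 ± 0.07 and -0.71 ± 0.03. TAP1 at 0.41 ± 0.04, PSMB9 at 0.26 ± 0.02 and B2M, the light chain of class I molecules, at 0.15 ± 0.03 did not pass. Of 16 clock genes 2 rose and 5 fell, with BHLHE40 at 0.82 ± 0.08, NR1D1 at 0.70 ± 0.03, HLF at -1.10 ± 0.13, TEF at -0.67 ± 0.07 and PER3 at least 1.75-fold lower. PER3 no longer passed without array 3 (adjusted p 0.235 by limma), and CRY2, at 0.21 ± 0.03, did not pass. PEG10, an imprinted gene of retroviral origin, read 4645, 4876 and 4877 intensity units with IND, against 29288, 31204 and 29794 with DMSO, and MAP2K6, a kinase of the p38 pathway, 232, 256 and 242 intensity units with IND, against 1613, 1665 and 1586 with DMSO. Neither belongs to a list, and their ratios were -2.65 ± 0.03 and -2.74 ± 0.05.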
